A study of Mus musculus with 10 samples.

Results

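The keratin genes described here were the 48 genes, of 19937 with a probe set of their own, whose symbol on the array platform is Krt followed only by a number, each read from its brightest probe set, by the mean of the 10 arrays. They were split by where keratin nomenclature places them into 22 simple and stratified epithelium keratins (5 and 17), 9 keratins of the inner root sheath and companion layer of the hair follicle, 11 hair keratins and 6 others. Levels were compared between sacral neural crest progenitors (NCPs, 3 arrays) and total embryo (7 arrays). NCPs were cells sorted by fluorescence at embryonic day 13 from mice carrying the C3Fe.Tg(Sox10-HIST2H2BE/Venus)ASout transgene, in which Sox10 sequences drive a nuclear yellow fluorescent protein. The sorted cells came from the bladder, blood vessels, pelvic ganglia and urethra of the lower urinary tract. Each NCP sample pooled tissue from several fetuses, according to the methods. The transgene also marks maturing glia and, for a short time, young neurons, so a sort on it is not limited to progenitors. Neither the stage nor the genotype of the total embryo RNA is given in the sample labels.

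Values were log2 levels from robust Multi-Array Average (RMA) on Affymetrix mouse gene arrays, and a fold change is the mean of the NCP arrays minus that of the total embryo arrays. The standard deviation (SD) over 28192 probe sets was 1.07, 0.97 and 1.13 on the NCP arrays and 1.78 to 1.91 on the total embryo arrays. The NCP arrays thus held a narrower range of values. The total embryo arrays carried only 2 RNA codes in their sample titles, on 3 and 4 arrays, and only 1 of the 7 shared its title date with the NCP arrays. Sox10, the gene whose regulatory sequences drive the reporter, was at 7.95, 7.14 and 7.60 on the NCP arrays, while its lowest, median and highest values on the total embryo arrays were 6.38, 6.59 and 6.65. Every NCP array lay above every total embryo array (log2 fold change 1.0, SE 0.18, adjusted p = 0.000278), although the call was lost with arrays averaged per RNA code (adjusted p = 0.0584) and the sign turned to -0.69 when arrays were centred on receptor genes. Of the 7 neural crest markers measured, 3 were higher in NCPs (42.9%, against 39.6% of all probe sets), 3 were lower (42.9%, against 27.5%) and 1 did not pass the test.

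Keratins build the intermediate filaments of epithelial cells, and each filament pairs an acidic type I keratin with a basic type II keratin. Simple epithelia such as that of the gut use Krt8 with Krt18 and Krt19, the basal layer of stratified epithelia uses Krt5 with Krt14 and Krt15, and the layers above it in the epidermis switch to Krt1 with Krt10. Hair keratins are made in the shaft of the hair and in some tongue papillae. Neural crest cells build filaments of vimentin and nestin. In the mouse the genes lie in a type I cluster on chromosome 11 and a type II cluster on chromosome 15, and Krt18 is the 1 type I gene that lies outside its own cluster, beside Krt8 on chromosome 15.

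Keratin genes of simple and stratified epithelia were mostly lower in NCPs than in total embryo, while hair keratins mostly did not pass the test. Of all 48 keratin genes, 23 were lower in NCPs and 8 were higher at an adjusted p under 0.05 by limma, against 27.5% of all probe sets lower and 39.6% higher. The median log2 fold change was -0.51 over the keratin genes and 0.23 over all probe sets. Among the 22 simple and stratified keratins 16 were lower and 1 was higher, with a median of -1.72 and a range of -5.24 to 0.51. Among the 11 hair keratins 1 was lower and 3 were higher, with a median of 0.23 and a range of -0.88 to 1.55. The medians of the 2 classes differed by -1.95. The classes also differed in level, with total embryo means of 4.72 to 12.00 for simple and stratified keratins and 4.68 to 7.54 for hair keratins. In bulk RNA, fewer cells of a type and less RNA per cell cannot be told apart.

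For 20 keratin genes the highest NCP array was still under the lowest total embryo array (21.5% of all probe sets did so), and for 7 the lowest NCP array was over the highest total embryo array (31.8% of all probe sets). With arrays centred on receptor genes, 45 of the 48 were lower (77.8% of all probe sets) and 0 higher (4.77%). Fold change also depended on level across the whole array. Level adjustment took off a smooth curve of each array's deviation from the total embryo mean, fitted along that mean. After it, 10 keratin genes were lower (8.29% of all probe sets) and 3 higher (10.3%), and the difference of the class medians was -0.36. The 10 were Krt8, Krt10, Krt1, Krt5, Krt15, Krt13, Krt16, Krt4, Krt27 and Krt36. The 3 were Krt34, Krt82 and Krt75. Neither Krt36 nor Krt34 had passed before the adjustment.

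**Figure D1:**
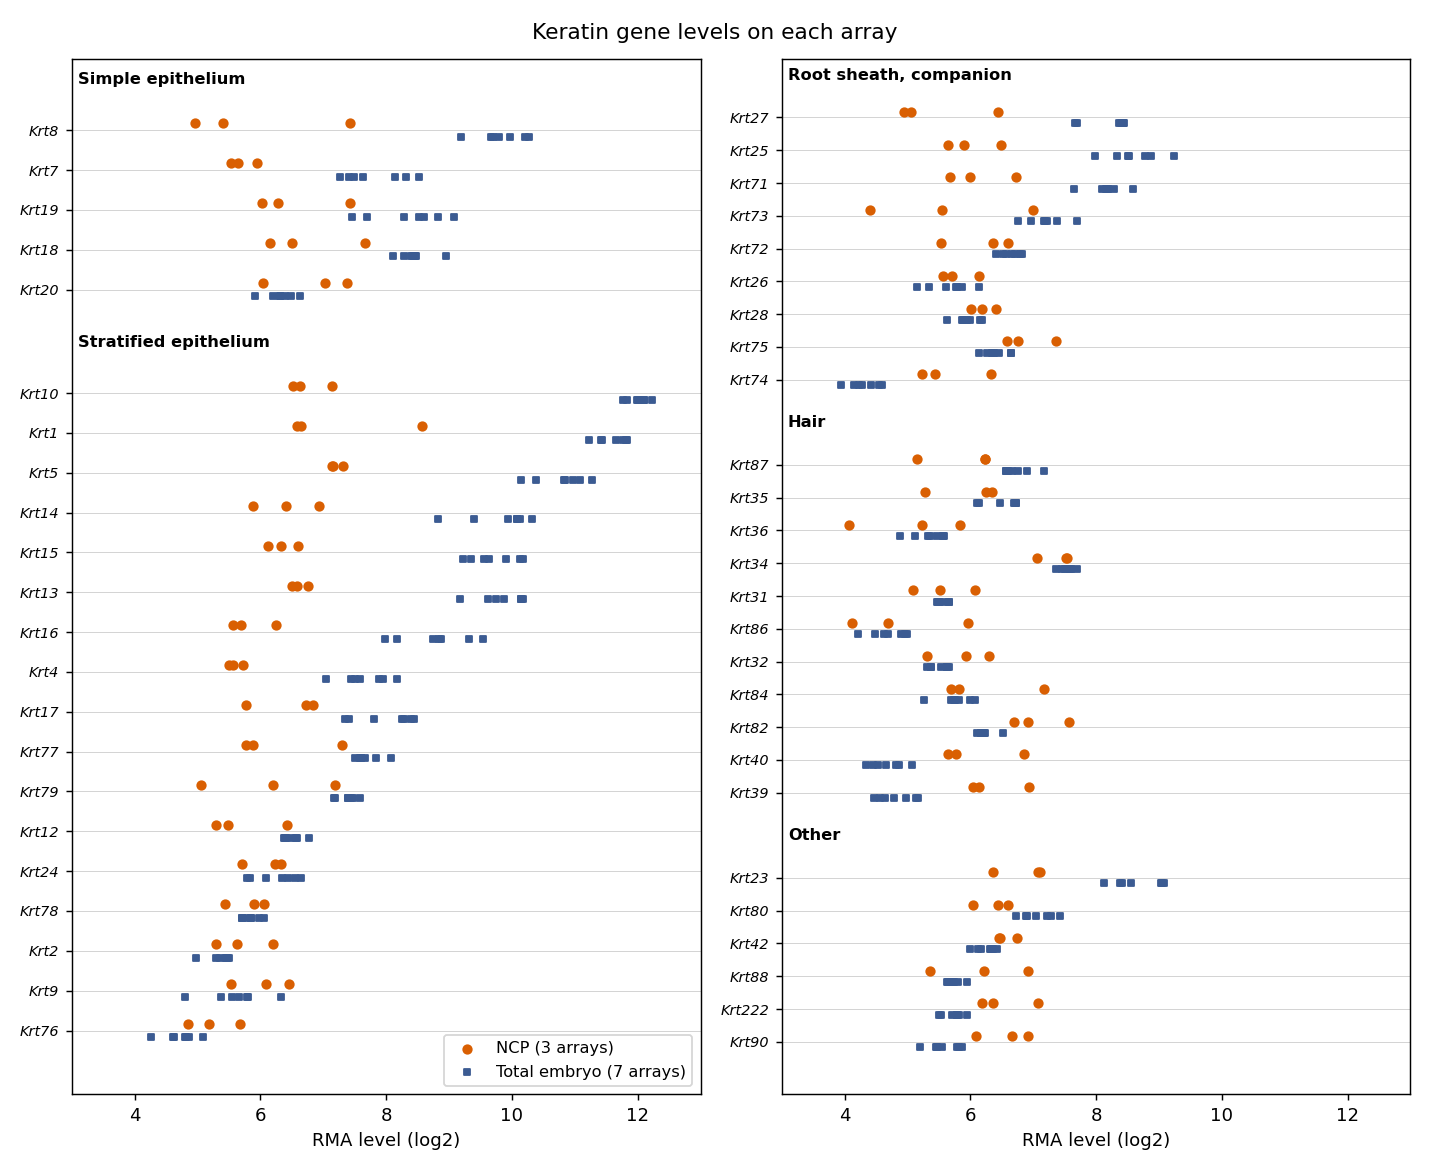
Level of each keratin gene (log2, horizontal axis) on each of the 3 NCP arrays (circles) and 7 total embryo arrays (squares), by class. Krt10 lies between 6.52 and 7.14 on the NCP arrays and between 11.77 and 12.22 on the total embryo arrays. For 7 of the 11 hair keratins the groups overlap. All NCP arrays lie below for 1 (21.5% of all probe sets) and above for 3 (31.8%).

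Start sites of several members are shown because keratin promoters have features in common that the choice of members did not use. RefSeq (GRCm38.p6) gave 36 promoter windows for 35 of the 48 genes. The letters TATAA, on either strand within 50 bases before the start, stood in 20 of the 36 windows (55.6%) and in 6.36% of all 32851 windows. The GC box letters GGGCGG, searched on both strands over 250 bases, stood in 2 of the 36 (5.56%) and in 32.7% of all windows. The letters GCCNNNGGC, a form of AP-2 site searched the same way, stood in 5 of the 36 (13.9%) and in 13.7% of all windows. By class, TATAA stood in 2 of 4 windows of simple, 6 of 13 of stratified, 6 of 8 of root sheath, 6 of 8 of hair and 0 of 3 of other keratins. It was therefore present both among the keratins that were lower in NCPs and among hair keratins that were higher. The 100 bases before the start, read 5′ to 3′ on the gene's strand with TATAA in capitals, are given for Krt10 (the epidermal gene that fell most), Krt5 (basal layer), Krt18 (simple epithelia), Krt27 (root sheath), and Krt39 and Krt40 (the 2 hair keratins with the largest increase).
Krt10, chr11:99389365-99389464, minus strand: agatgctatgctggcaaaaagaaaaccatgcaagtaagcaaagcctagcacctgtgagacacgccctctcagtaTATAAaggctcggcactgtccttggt
Krt5, chr15:101712906-101713005, minus strand: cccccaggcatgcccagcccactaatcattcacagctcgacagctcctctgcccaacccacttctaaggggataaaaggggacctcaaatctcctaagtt
Krt18, chr15:102028116-102028215, plus strand: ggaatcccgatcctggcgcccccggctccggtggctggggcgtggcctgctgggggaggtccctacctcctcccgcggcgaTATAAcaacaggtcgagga
Krt27, chr11:99351119-99351218, minus strand: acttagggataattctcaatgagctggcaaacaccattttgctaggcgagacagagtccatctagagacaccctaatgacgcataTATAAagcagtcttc
Krt39, chr11:99521339-99521438, minus strand: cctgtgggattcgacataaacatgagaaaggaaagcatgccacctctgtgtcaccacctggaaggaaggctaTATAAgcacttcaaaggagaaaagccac
Krt40, chr11:99543221-99543320, minus strand: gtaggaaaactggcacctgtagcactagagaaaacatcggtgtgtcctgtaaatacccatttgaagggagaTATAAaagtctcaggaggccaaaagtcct
Krt5 has no TATAA in this stretch. In Krt10, Krt39 and Krt40 the letters begin at positions -26, -28 and -29 relative to the start, and in Krt18 and Krt27 at -19 and -15.

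Of the 5 simple epithelium keratins, 4 were lower in NCPs (80%, against 27.5% of all probe sets). Krt8, the type II keratin of simple epithelia, was at 7.42, 5.40 and 4.95 on the NCP arrays and at 9.19, 9.79 and 10.26 (lowest, median, highest) on the total embryo arrays. NCP array 1 stood well above the other 2, yet the groups did not overlap, and the log2 fold change was -3.90 (SE 0.42, adjusted p = 4.85e-06). Its type I partner Krt18 was at 6.15, 7.67 and 6.50 on the NCP arrays and at 8.10, 8.42 and 8.95 on the total embryo arrays. Here NCP array 2 was the highest and array 1, the highest for Krt8, was the lowest, again with no overlap (log2 fold change -1.67, SE 0.28, adjusted p = 0.000198). Neither gene exceeded the 95th percentile of the olfactory and vomeronasal receptor genes, a floor of silent genes, on more than 1 NCP array, with NCP means at percentiles 54.0 and 91.4. For a gene at that floor the fold change gives a lower limit to the decrease and not its size. After level adjustment Krt8 was still lower (-1.56, adjusted p = 0.0304), whereas Krt18 was at 0.12 (adjusted p = 0.836). Krt18 also turned to 0.066 under cyclic loess scaling.

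Krt19, a type I keratin of ducts, was at 6.29, 7.43 and 6.02 on the NCP arrays and at 7.46, 8.52 and 9.08 on the total embryo arrays. The highest NCP array came close to the lowest total embryo array without crossing it, and the log2 fold change was -1.77 (SE 0.37, adjusted p = 0.000987). Krt7, the type II keratin of bladder and duct epithelium, was at 5.94, 5.64 and 5.53 on the NCP arrays and at 7.27, 7.63 and 8.53 on the total embryo arrays. Its NCP arrays lay close together and apart from the others (log2 fold change -2.12, SE 0.28, adjusted p = 2.29e-05). After level adjustment neither passed, with -0.047 for Krt19 and -0.79 for Krt7. Krt20, found in gut and in the umbrella cells of the urothelium, was at 7.38, 7.03 and 6.05 on the NCP arrays and at 5.91, 6.31 and 6.63 on the total embryo arrays. The groups overlapped through NCP array 3 (log2 fold change 0.50, adjusted p = 0.0978), and without that array the value passed at 0.89.

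The epidermal keratins of the suprabasal layers had the largest differences of the family. Krt10 was at 6.52, 6.62 and 7.14 on the NCP arrays and at 11.77, 12.01 and 12.22 on the total embryo arrays. The gap between the groups was many times the spread within either (log2 fold change -5.24, SE 0.18, adjusted p = 9.31e-10). Its type II partner Krt1 was at 8.58, 6.58 and 6.65 on the NCP arrays and at 11.22, 11.66 and 11.83 on the total embryo arrays. NCP array 1 was the high one, as for Krt8, and still lay below the total embryo range (log2 fold change -4.32, SE 0.36, adjusted p = 5.27e-07). Both remained lower after level adjustment, at -2.52 (adjusted p = 0.000916) for Krt10 and -1.67 (adjusted p = 0.0201) for Krt1.

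The basal layer keratins were all lower. Krt5 was at 7.32, 7.15 and 7.13 on the NCP arrays and at 10.15, 10.84 and 11.27 on the total embryo arrays, with a log2 fold change of -3.59 (SE 0.23, adjusted p = 8.55e-08). Its partner Krt14 was at 6.94, 6.41 and 5.88 on the NCP arrays and at 8.82, 10.07 and 10.32 on the total embryo arrays, with a log2 fold change of -3.42 (SE 0.32, adjusted p = 1.45e-06). Krt15, a further basal type I keratin, was at 6.60, 6.32 and 6.12 on the NCP arrays and at 9.22, 9.63 and 10.17 on the total embryo arrays. None of the 3 genes had overlapping groups. Level adjustment left Krt5 at -1.08 (adjusted p = 0.0483) and Krt15 at -1.05 (adjusted p = 0.0225), and Krt14 at -1.08 without passing (adjusted p = 0.0641).

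Keratins of internal stratified epithelia, such as those of tongue and oesophagus, also fell. Krt13 was at 6.75, 6.58 and 6.50 on the NCP arrays and at 9.18, 9.88 and 10.17 on the total embryo arrays (log2 fold change -3.23, adjusted p = 1.31e-07). Its type II partner Krt4 was at 5.51, 5.57 and 5.72 on the NCP arrays and at 7.05, 7.58 and 8.17 on the total embryo arrays (log2 fold change -2.06, adjusted p = 5.19e-06). Both had narrow NCP ranges that did not reach the total embryo arrays. Krt16 and Krt17, type I keratins of appendages and of stressed epidermis, had log2 fold changes of -2.95 and -1.55 with adjusted p = 4.18e-06 and 0.000616, again without overlap. Level adjustment kept Krt13 (-0.89), Krt4 (-0.87) and Krt16 (-0.96) lower, and left Krt17 at -0.087.

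The remaining stratified keratins had smaller differences. Krt77 was lower with a log2 fold change of -1.37, Krt79, known from the hair canal and sebaceous duct, with one of -1.23, and Krt12, the keratin of corneal epithelium, with one of -0.77 (adjusted p from 0.000922 to 0.00777). With total embryo arrays averaged per RNA code none of the 3 passed (adjusted p = 0.0748, 0.148 and 0.176), and Krt12 did not pass with the RNA code as a random block (adjusted p = 0.0632). For Krt79 and Krt12 the groups overlapped through 1 NCP array each, and Krt79 was at -0.68 without NCP array 2. Krt24, Krt78, Krt2 and Krt9, the last of these the keratin of palm and sole skin, did not pass, with log2 fold changes of -0.16, -0.045, 0.35 and 0.41. Leaving out NCP array 3 gave 0.032 for Krt24 and 0.56, then past the threshold, for Krt2, and leaving out NCP array 1 gave 0.14 for Krt78. Krt76, a keratin of the hard palate, was the only stratified keratin higher in NCPs, at 4.84, 5.68 and 5.19 on the NCP arrays and at 4.26, 4.80 and 5.09 on the total embryo arrays. The groups overlapped and the test passed narrowly (log2 fold change 0.51, adjusted p = 0.0490). It no longer passed without total embryo array 1, 2, 3, 4, 5 or 7 (0.44 to 0.54) or without NCP array 2 (0.29) or 3 (0.54), or with the RNA code as a random block (adjusted p = 0.24), and it turned to -0.58 after level adjustment, -0.52 under repeated quantile normalization, -0.68 under cyclic loess and -1.18 with arrays centred on receptor genes.

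**Figure D2:**
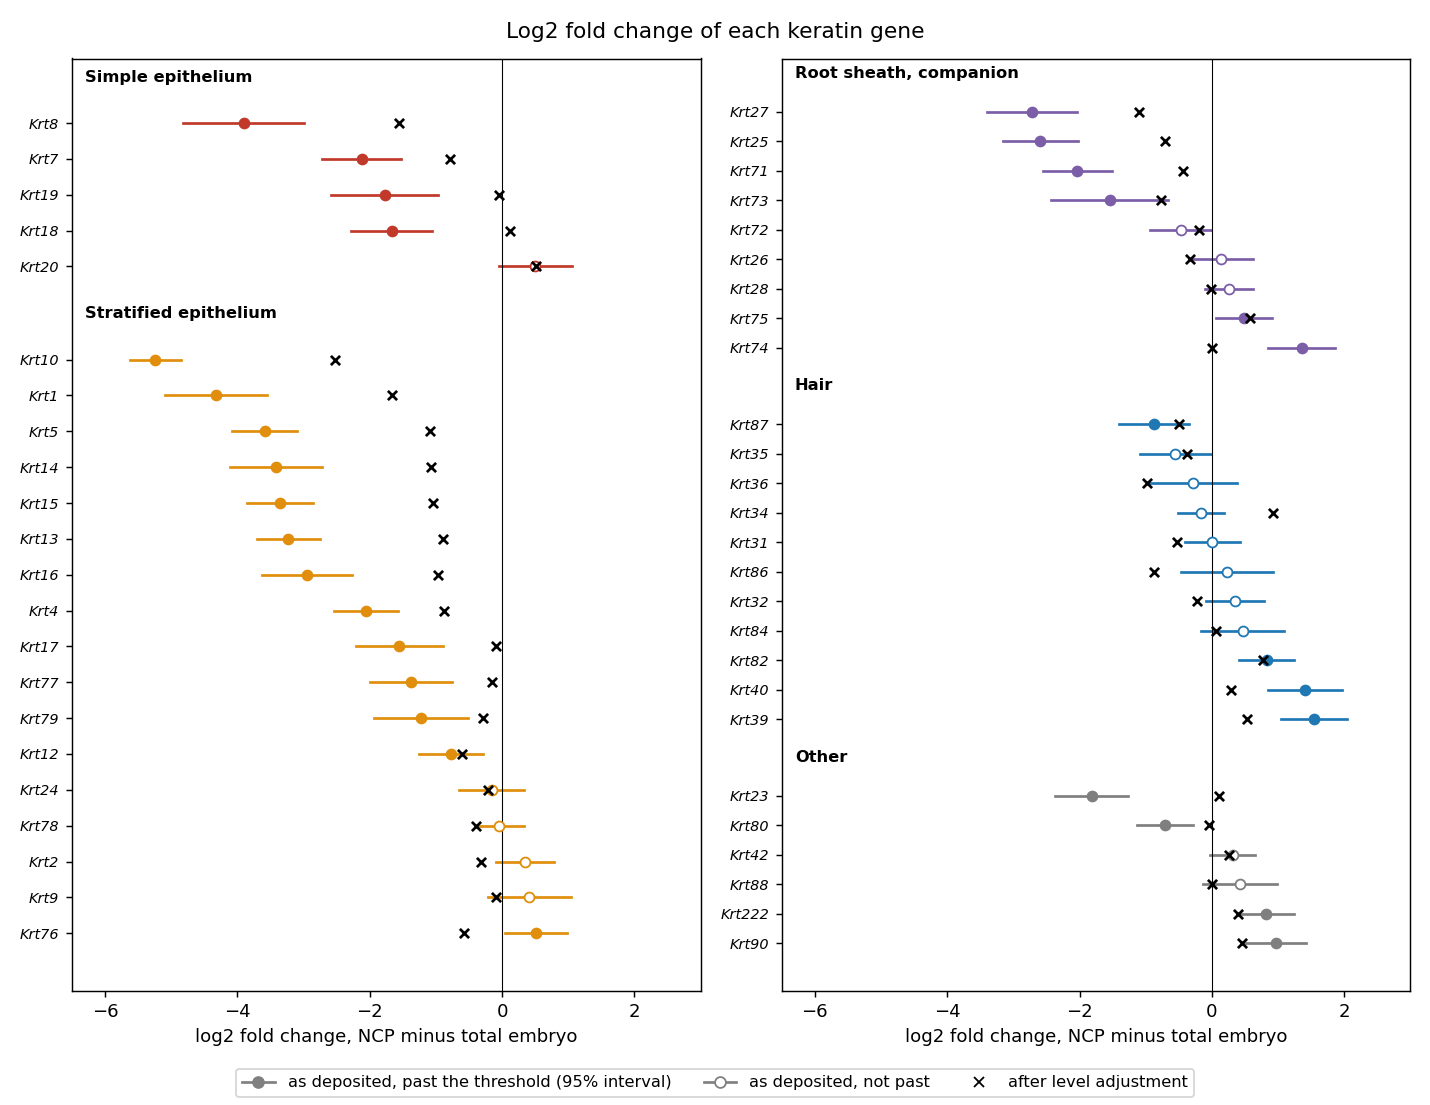
Log2 fold change of each keratin gene, NCP minus total embryo (horizontal axis), with its 95% interval from limma. Filled circles passed the test, open circles did not, and crosses give the level-adjusted value. The circles of Krt10, Krt1 and Krt8 lie furthest to the left at -5.24, -4.32 and -3.90, and their crosses at -2.52, -1.67 and -1.56.

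Keratins of the inner root sheath and companion layer had 4 of 9 genes lower (44.4%, against 27.5% of all probe sets) and 2 higher (22.2%, against 39.6%). The other 3 did not pass, and the median was -0.47. Krt27, Krt25 and Krt71, which line the sheath of the growing hair, had log2 fold changes of -2.72, -2.59 and -2.03 with no overlap (adjusted p = 8.14e-06, 2.82e-06 and 9.6e-06). Krt27, for example, was at 5.06, 4.95 and 6.44 on the NCP arrays and at 7.67, 8.39 and 8.45 on the total embryo arrays, so that even its high array 3 lay below the total embryo range. Krt27 also remained lower after level adjustment (-1.10, adjusted p = 0.0187), while Krt25 and Krt71 did not pass (-0.71 and -0.44). Krt73, a sheath cuticle keratin, was at 5.55, 6.99 and 4.40 on the NCP arrays, a wide spread that crossed the total embryo range of 6.75 to 7.69. Its log2 fold change was -1.55 (adjusted p = 0.00453), -0.92 without NCP array 3, and not past the threshold with arrays averaged per RNA code (adjusted p = 0.127). Krt72, Krt26 and Krt28 did not pass, at -0.47, 0.14 and 0.25, and Krt72 passed at -0.69 without NCP array 3 and Krt26 was at -0.030 without NCP array 1.

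The 2 keratins of this class that were higher in NCPs rested on low or close values. Krt74, a root sheath keratin in humans and a transcribed pseudogene in the RefSeq mouse table, was at 5.44, 6.33 and 5.24 on the NCP arrays and at 3.95, 4.28 and 4.59 on the total embryo arrays (log2 fold change 1.36, adjusted p = 0.000217). The groups did not overlap, yet level adjustment took the value to 0.0065 and centring on receptor genes to -0.33. Krt75, the companion layer keratin, was at 7.37, 6.75 and 6.58 on the NCP arrays and at 6.14, 6.37 and 6.64 on the total embryo arrays (log2 fold change 0.49, adjusted p = 0.0403, and 0.58 with adjusted p = 0.0486 after level adjustment). The call was lost without NCP array 1 (0.26) and without total embryo array 1, 2, 5, 6 or 7 (0.44 to 0.50) or with the RNA code as a random block (adjusted p = 0.157), and the sign turned to -1.20 with arrays centred on receptor genes.

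Hair keratins had no large decrease, but only 4 of the 11 exceeded the 95th percentile of the receptor genes on all 7 total embryo arrays. For those near that floor in total embryo, a large decrease could not have been measured. Krt87 was the 1 hair keratin lower in NCPs, at 6.24, 5.15 and 6.23 on the NCP arrays and at 6.56, 6.67 and 7.18 on the total embryo arrays (log2 fold change -0.88, adjusted p = 0.00616), with -0.51 without NCP array 2 and no call after level adjustment (-0.49) or with the RNA code as a random block (adjusted p = 0.0637). Krt35, an early keratin of the hair matrix, missed the threshold (-0.55, adjusted p = 0.0629) and passed it without total embryo array 1 (-0.62) or 2 (-0.61) or without NCP array 2 (-0.74) or 3 (-0.70). Krt34, a cortex keratin, was at 7.52, 7.54 and 7.06 on the NCP arrays and at 7.37, 7.56 and 7.70 on the total embryo arrays. These ranges overlapped and the 95% interval of the log2 fold change ran from -0.51 to 0.18. Since most probe sets of that level were lower in NCPs, Krt34 was higher after level adjustment (0.92, adjusted p = 0.00252).

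The 3 hair keratins that were higher in NCPs had no overlap, and all are known from the cuticle of human hair. Krt39 was at 6.04, 6.14 and 6.93 on the NCP arrays and at 4.47, 4.78 and 5.17 on the total embryo arrays (log2 fold change 1.55, SE 0.23, adjusted p = 6.77e-05). Krt40 was at 6.86, 5.77 and 5.64 on the NCP arrays and at 4.35, 4.66 and 5.08 on the total embryo arrays (log2 fold change 1.41, SE 0.26, adjusted p = 0.00035). Krt82 was at 6.69, 7.56 and 6.91 on the NCP arrays and at 6.11, 6.18 and 6.53 on the total embryo arrays (log2 fold change 0.83, SE 0.19, adjusted p = 0.00213). Of the 3, Krt82 alone passed after level adjustment (0.77, adjusted p = 0.0161), with Krt39 at 0.52 and Krt40 at 0.30, and centring on receptor genes turned the signs to -0.14 for Krt39, -0.28 for Krt40 and -0.86 for Krt82. Krt82 did not pass with arrays averaged per RNA code (adjusted p = 0.115). The other hair keratins, Krt31, Krt86, Krt32, Krt84 and Krt36, did not pass, with log2 fold changes of 0.0065, 0.23, 0.35, 0.47 and -0.28. Single NCP arrays set several of these values, with Krt32 past the threshold at 0.61, Krt36 at 0.21 and Krt84 at -0.0070 without array 2, Krt86 at -0.29 without array 1 and Krt31 at -0.25 without array 3.

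Of the 6 other keratins, Krt23 and Krt80 were lower and Krt222 and Krt90 higher. Krt23 was at 7.08, 6.36 and 7.10 on the NCP arrays and at 8.13, 8.55 and 9.09 on the total embryo arrays (log2 fold change -1.82, adjusted p = 4.23e-05). After level adjustment its value was 0.10. Krt80 was lower (-0.71), and Krt222 and Krt90 were higher (0.81 and 0.97), all 3 with no overlap (adjusted p = 0.00596, 0.00295 and 0.00133), and none of these passed after level adjustment (-0.037, 0.39 and 0.45). With arrays averaged per RNA code none of the 3 passed either (adjusted p = 0.13, 0.12 and 0.0836). Centring on receptor genes turned Krt222 to -0.88 and Krt90 to -0.72. Krt42 and Krt88 did not pass, at 0.31 and 0.42, although the NCP arrays of Krt42 all lay above the total embryo arrays and Krt88 passed at 0.82 without NCP array 1. Split by filament type instead of tissue, 12 of 26 type I genes were lower (46.2%) and 3 higher (11.5%), with a median of -0.42. Type II genes had 11 of 22 lower (50%) and 5 higher (22.7%), with a median of -0.59. Over all probe sets 27.5% were lower and 39.6% higher.

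Olfactory and vomeronasal receptor genes, 1178 in all and silent in most tissues outside the nose, gave a floor for these levels. The 95th percentile of the receptor genes was itself higher on the NCP arrays, at 6.65 to 6.88, than on the total embryo arrays, at 5.33 to 5.49. On all 7 total embryo arrays, 35 of the 48 keratin genes exceeded it, but only Krt34 and Krt5 did so on all 3 NCP arrays. The share of all genes that exceeded it in each group was not counted. On the NCP arrays 26 keratin genes exceeded it on none. The NCP means of Krt8 and Krt4 stood at percentiles 54.0 and 54.1 of the receptor genes, against 100 in total embryo, and those of Krt10 and Krt1 at 93.3 and 94.6. Krt5 stood at percentile 98.1. Of the 8 keratins higher in NCPs, none had a higher percentile in NCPs than in total embryo, with Krt39 at 83.1 in NCPs and 84.0 in total embryo and Krt40 at 71.2 in NCPs and 80.3 in total embryo.

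**Figure D3:**
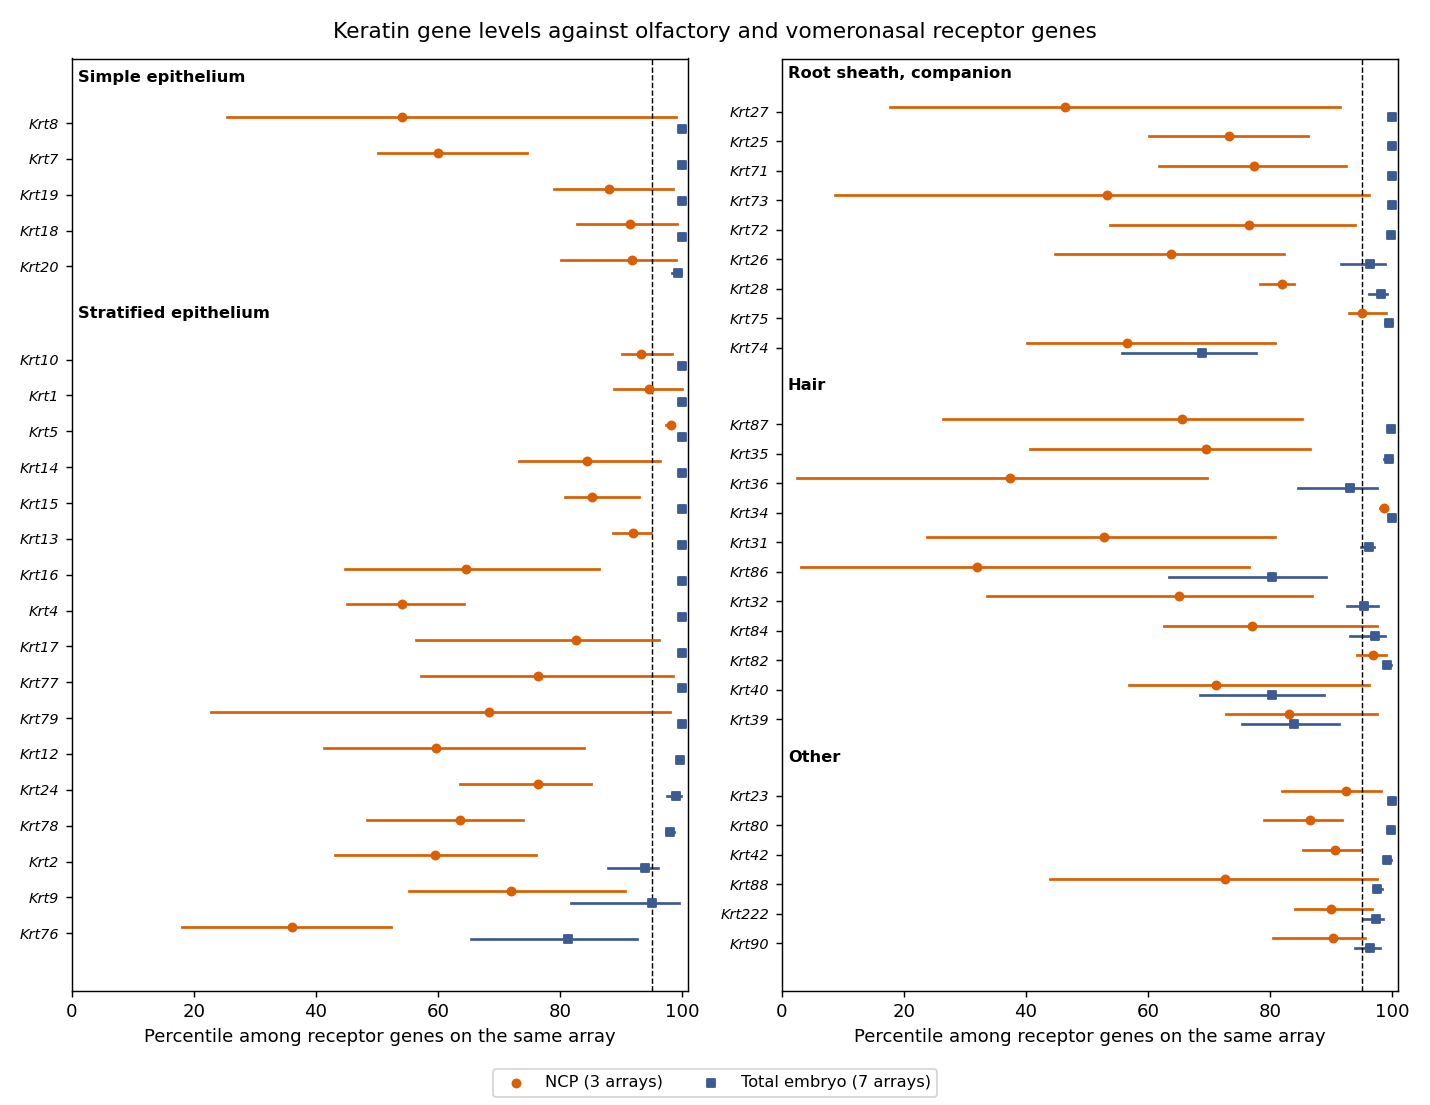
Percentile of each keratin gene among 1178 olfactory and vomeronasal receptor genes on the same array, for NCP (circles) and total embryo (squares), with the mean as a point and the lowest to highest array as a line. The dashed line marks percentile 95, which 35 keratin genes exceed on every total embryo array and 2 on every NCP array. The level at that percentile was higher on the NCP arrays.

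The direction of a keratin gene followed its level in total embryo. Of the 22 keratin genes with a total embryo mean of 7 or more, a split chosen after the values were seen, 21 were lower in NCPs (80.9% of all probe sets of that level) and 0 higher (1.69%), with Krt34 the exception. Of the 26 below 7, 2 were lower (7.22% of all probe sets of that level), namely Krt12 and Krt87, and 8 were higher (53.9%). Across the 48 genes, which share the same 10 arrays and are not independent, the log2 fold change and the total embryo mean had a Pearson r of -0.96 and a Spearman rho of -0.91. Across all 28192 probe sets they were -0.87 and -0.90, and the total embryo mean enters both axes. In the brightest of 10 equal groups of probe sets, the median log2 fold change was -2.16, at levels of 8.39 to 13.5 with a median of 9.30. Krt10, brighter than that median at 12.00, was at -5.24. The simple and stratified keratins of 7 or more numbered 15, all lower, with a level-adjusted median of -0.89, of which 8 were lower after adjustment. The 7 dimmer ones had 1 lower and 1 higher, with a median log2 fold change of 0.35. Among the 11 hair keratins, of which only Krt34 had a mean of 7 or more, the median was 0.23. How far the narrower range of the NCP arrays set these differences was not tested.

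**Figure D4:**
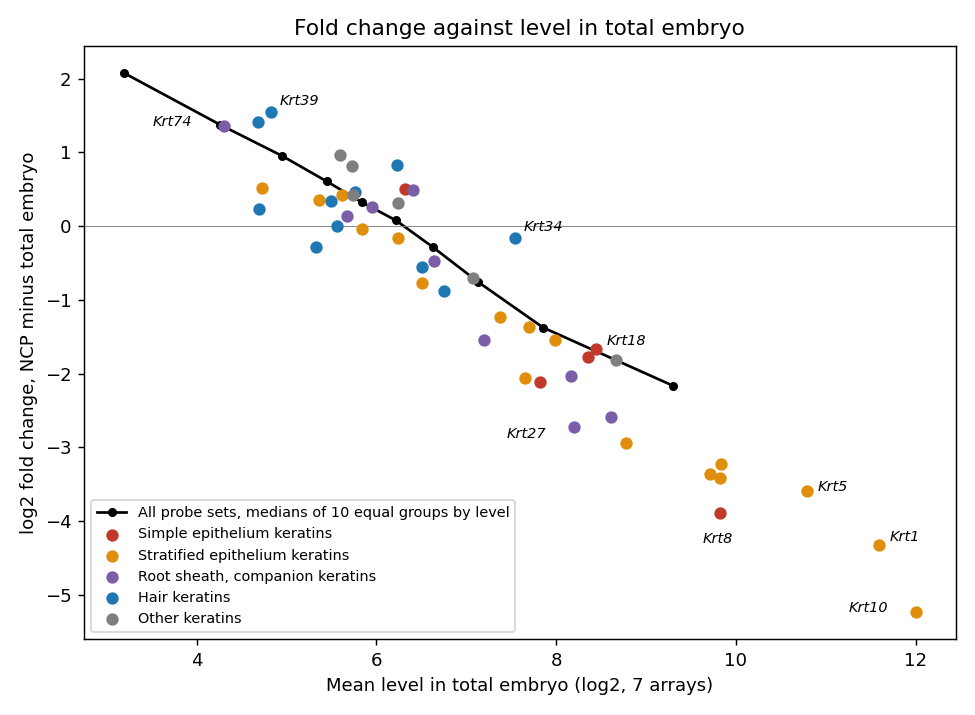
Log2 fold change, NCP minus total embryo (vertical axis), against the mean level in total embryo (log2, horizontal axis) for the 48 keratin genes, coloured by class. The black line joins the medians of 10 equal groups of all probe sets by level. The line ends at a level of 9.30, and Krt10, Krt1 and Krt8 lie to the right of that end and lower. Krt34 lies above the line.

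Within the groups, the keratin genes varied more among NCPs than among total embryo arrays. The SD over the NCP arrays ran from 0.10 (Krt5) to 1.32 (Krt8) with a median of 0.49, and over the total embryo arrays from 0.08 to 0.59 with a median of 0.26. For all probe sets the medians were 0.48 and 0.22. NCP arrays 1, 2 and 3 were the highest of the 3 for 20, 19 and 9 keratin genes, and array 1 was so for 3 of 5 simple and 9 of 17 stratified ones. On the total embryo side, arrays 1 and 2 were the 2 lowest of 7 for 17 of the 48 genes (10.8% of all probe sets did so), among them Krt5, Krt14, Krt15, Krt13, Krt16 and Krt17. Krt14, for instance, averaged 9.11 on arrays 1 and 2 and 10.11 on the other 5, and Krt19 7.58 and 8.66. Arrays 1, 2 and 7 carried one RNA code and arrays 3 to 6 the other. The difference of the class medians, simple and stratified minus hair keratins, was -1.95 with all 7 total embryo arrays. It was -1.75 with the 1 array that shares the title date of the NCP arrays as the only control.

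Genes of desmosomes, hemidesmosomes and linkers, whose proteins anchor keratin filaments, had 11 of 17 lower (64.7%, against 27.5% of all probe sets). None was higher (against 39.6%), and the median was -0.70. The decreases were led by Dsp (log2 fold change -3.55, adjusted p = 1.67e-07) and Itga6, the hemidesmosome integrin (-2.26). Dsp, the plakin that ties keratin to desmosomes, was at 5.54, 6.95 and 6.38 on the NCP arrays. On the total embryo arrays it was at 9.63, 9.89 and 10.04. Genes of the cornified envelope, the shell of the outermost epidermal cells, had 9 of 10 lower (90%) with a median of -2.25, led by Lor (-4.34) and Sprr1a (-3.90). Of probe sets with a total embryo mean of 7 or more, 80.9% were lower. After level adjustment, which left 8.29% of all probe sets lower, 1 of 17 linker genes (5.88%), Dsp (-1.21), and 2 of 10 cornified envelope genes (20%), Sprr1a (-1.48) among them, passed as lower. Transcription factors known to act on keratin genes mostly did not pass. Of 18, 3 were lower (16.7%, against 27.5% of all probe sets) and 2 higher (11.1%, against 39.6%), with a median of 0.051. Trp63, the master factor of stratified epithelia, was lower (-2.31, and -0.87 with adjusted p = 0.009 after level adjustment), and Foxn1, a factor of hair and nail, was higher (1.04), which level adjustment brought to 0.46 without a call and receptor centring to -0.65.

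The 4 keratin genes measured with a letter in their name lay outside the rule for members. Of these, 1 was lower (25%, against 27.5% of all probe sets) and 0 were higher (against 39.6%). Krt6a, the partner of Krt16 and Krt17, was lower (-0.90, adjusted p = 0.0185), a call lost without NCP array 2 (-0.40) and with the RNA code as a random block (adjusted p = 0.107), and turned to 0.20 by level adjustment and 0.21 by cyclic loess. Krt33b, a hair cortex keratin, was at 8.54, 7.67 and 7.88 on the NCP arrays and at 7.63, 7.89 and 8.01 on the total embryo arrays, with 0.16 for the log2 fold change and 1.53 (adjusted p = 0.000188) after level adjustment. Without NCP array 1 its fold change was -0.092, and with receptor centring -1.53. Of the 40 keratin-associated protein genes, which encode the matrix between hair keratin filaments, 12 were lower (30%, against 27.5% of all probe sets) and 11 higher (27.5%, against 39.6%), with a median of 0.13.

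The list of other intermediate filament genes held those of neurons, glia, muscle, mesenchyme, the lens and the nuclear lamina. It had 5 of 15 lower (33.3%, against 27.5% of all probe sets) and 3 higher (20%, against 39.6%) with a median of -0.13. Of the nuclear lamin genes, Lmnb1 (-1.87) and Lmna (-1.05) were lower and Lmnb2 (0.33) did not pass. The largest increases were those of Gfap, the filament of glia (1.02, adjusted p = 0.00994), and Bfsp2, a lens gene (0.76, adjusted p = 0.00631). Gfap was at 7.17, 5.46 and 5.52 on the NCP arrays and at 4.75, 5.07 and 5.14 on the total embryo arrays. After level adjustment neither passed, at 0.13 for Gfap and 0.0077 for Bfsp2. Des, the filament of muscle, was lower (-2.41). Vim, the filament of mesenchymal and neural crest cells, was at 10.28, 8.75 and 10.66 on the NCP arrays and at 10.72, 10.93 and 10.94 on the total embryo arrays (log2 fold change -0.97, adjusted p = 0.0142), with NCP array 2 far below the other 2 and -0.40 without it. Level adjustment turned Vim to 1.55 (adjusted p = 3.79e-05), cyclic loess to 1.01 and repeated quantile normalization to 0.31. Nefl, the light neurofilament of neurons, was at 7.51, 8.04 and 8.59 on the NCP arrays and at 7.08, 7.43 and 7.77 on the total embryo arrays (log2 fold change 0.67, adjusted p = 0.0207). It was at 1.62 after level adjustment, at 0.40 and no longer past the threshold without NCP array 3, and at -1.02 with receptor centring. With the RNA code as a random block neither Vim nor Nefl passed (adjusted p = 0.0611 and 0.152), nor with arrays averaged per code (adjusted p = 0.22 and 0.205). Of the other neuronal filament genes Ina was lower (-1.20, adjusted p = 0.000646), and Nefm (0.43), Nefh (0.090) and Prph (0.26) did not pass. Nes, the nestin gene, did not pass either (-0.61, adjusted p = 0.0522). After level adjustment Nes was lower (-0.85, adjusted p = 0.0387), Nefm (2.19) and Prph (0.77) were higher, and Ina (0.050) and Nefh (0.13) did not pass.

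Of 13 markers of epithelial cells, 7 were lower in NCPs (53.8%, against 27.5% of all probe sets) and 0 were higher (against 39.6%). The other 6 did not pass, and the median was -1.07. The mean over the list was 5.88 to 6.31 on the NCP arrays and 6.78 to 7.17 on the total embryo arrays. Epcam, an adhesion molecule of epithelia, was at 5.24, 5.34 and 5.53 on the NCP arrays and at 7.42, 7.76 and 8.09 on the total embryo arrays (log2 fold change -2.35, adjusted p = 3.04e-07), and its NCP mean stood at percentile 42.7 of the receptor genes. Esrp1, an epithelial splicing factor, was lower with a log2 fold change of -2.0, and Cdh1, the cadherin of epithelia, with one of -1.61. Of the uroplakins, proteins of the bladder lining, Upk1b was lower (-1.85, adjusted p = 0.000728) and Upk1a, Upk2 and Upk3a did not pass (0.030, 0.19 and 0.25). After level adjustment 5 of the 13 were lower (38.5%, against 8.29% of all probe sets), among them Epcam (-1.11, adjusted p = 0.00108) and Esrp1 (-1.08, adjusted p = 0.00486), and Cdh1 did not pass (-0.23). The part of epithelial cell content in the keratin differences was not tested.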

How the data were processed

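The authors labelled amplified RNA, hybridized it to Affymetrix mouse gene arrays and deposited RMA values on a log2 scale, made in Affymetrix Expression Console 1.1. Which arrays were normalized together is not given in the sources used here. The deposited log2 values of 3 NCP and 7 total embryo arrays were used as they stood, grouped by sample labels. Of 34760 probe sets, 6568 controls were left out and 28192 were fitted with limma 3.58.1 in R 4.3.3 (lmFit and eBayes, prior of 4.65 degrees of freedom), with Benjamini-Hochberg adjustment over all of them and a threshold of 0.05. The methods describe independent pools of fetuses for sorted cells, but the total embryo arrays repeat 2 RNA codes, so p-values measure the spread between arrays, which may be technical, and the number of arrays limits precision. RefSeq names matched all 48 symbols. Promoter sequences came from RefSeq, and summaries were made with Python 3.11.15. The fit was tested on simulated data with independent arrays, which does not cover shared RNA codes or the narrower range of the NCP arrays.

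The genes named are the keratin genes above the 95th percentile of receptor genes on all arrays of a group, up to 3 increases and 3 decreases per class, 11 keratins whatever their values (Krt1, Krt5, Krt7, Krt8, Krt10, Krt14, Krt15, Krt17, Krt18, Krt19 and Krt20), up to 2 increases and 2 decreases from each other list, and Sox10. The genes given are a selection of these. Vim, Nes, Esrp1, Cdh1, the neuronal filament, lamin and uroplakin genes and keratin genes outside this rule were chosen after their values were seen. Members, lists and rules were chosen with earlier results of these data known. Alternatives changed the control arrays, averaged arrays per RNA code or took it as a random block (correlation 0.68), rescaled the arrays, adjusted for level (lowess span 0.3), filtered dim probe sets, changed the prior, threshold and probe set choice, and left out each array in turn.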

Additional observations from a re-analysis of the deposited data

Results flagged for a closer look

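Among 63 genes tested in the total embryo group, 3 had 1 array whose gap to its neighbour exceeded 0.568 of the whole range, Dixon's 95% limit for 7 values. Chance alone gives such a gap in about 5% of groups. Krt2 was at 4.97 on total embryo array 7 and between 5.29 and 5.5 on the other 6. Krt82 was at 6.53 on total embryo array 7 and between 6.11 and 6.24 on the others. Sox10 was at 6.38 on total embryo array 2 and between 6.53 and 6.65 on the others.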

How the results depend on the processing

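The same title date left 1 control array, so its spread was assumed to equal that of the NCP arrays. Calls under it are not counted here. Under receptor centring 77.8% of all probe sets were lower and 4.77% higher. The count of 23 lower keratin genes became 45 with arrays centred on receptor genes. It was 10 after level adjustment, with Krt36 not one of the 23, and 23 to 25 with any 1 array left out. The 8 higher ones were 3 with controls of the same title series, 3 with arrays averaged per RNA code and 5 under cyclic loess. They were 0 with receptor centring, 3 after level adjustment and 6 to 9 with any 1 array left out. With dim probe sets filtered they were 4, a filter that left out Krt39, Krt40, Krt74 and Krt76. The 16 lower simple and stratified keratins were 8 after level adjustment, and 16 without any 1 array. The 1 higher, Krt76, became 0 under the same series, RNA code averages, random block, quantile, loess, median centring and receptor centring. Level adjustment, the dim filter and a threshold of 0.01 also gave 0. The count was 0 to 2 with 1 array left out. The count of 1 lower hair keratin became 0 under the same series, RNA code averages and random block. It became 2 under quantile and median centring, 4 under loess and 9 under receptor centring, and 1 to 2 with 1 array left out. The 3 higher hair keratins became 0 under receptor centring and 1 with the dim filter, and 3 to 4 with 1 array left out. The difference of class medians of -1.95 became -1.07 under quantile normalization, -0.47 under loess and -0.36 after level adjustment, and lay between -2.31 and -1.83 with 1 array left out. The causes were not tested.

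Krt1, Krt10, Krt13, Krt15 and Krt5 passed as lower under every alternative that kept more than 1 control array. The median over all probe sets, 0.23 as deposited, was 0.080 under quantile, -0.0089 under loess, 0.11 under median centring, -1.46 under receptor centring and -0.013 after level adjustment. Signs turned under receptor centring for Krt20 (-1.19), Krt2 (-1.34), Krt9 (-1.28), Krt76 (-1.18), Krt26 (-1.55), Krt28 (-1.44), Krt75 (-1.20), Krt74 (-0.33), Krt31 (-1.68), Krt86 (-1.46), Krt32 (-1.34), Krt84 (-1.22), Krt82 (-0.86), Krt40 (-0.28), Krt39 (-0.14), Krt42 (-1.38), Krt88 (-1.27), Krt222 (-0.88), Krt90 (-0.72), Krt33b (-1.53), Foxn1 (-0.65), Nefl (-1.02) and Sox10 (-0.69). Under cyclic loess they turned for Krt18 (0.066), Krt2 (-0.37), Krt9 (-0.087), Krt76 (-0.68), Krt26 (-0.39), Krt34 (1.17), Krt31 (-0.64), Krt86 (-1.05), Krt32 (-0.27), Krt23 (0.038), Krt6a (0.21) and Vim (1.01). After level adjustment they turned for Krt18 (0.12), Krt2 (-0.32), Krt9 (-0.085), Krt76 (-0.58), Krt26 (-0.33), Krt28 (-0.012), Krt34 (0.92), Krt31 (-0.53), Krt86 (-0.87), Krt32 (-0.23), Krt23 (0.10), Krt6a (0.20) and Vim (1.55). Under quantile normalization they turned for Krt2 (-0.19), Krt76 (-0.52), Krt26 (-0.31), Krt34 (0.88), Krt31 (-0.67), Krt86 (-0.82), Krt32 (-0.11) and Vim (0.31). With the same title date they turned for Krt26 (-0.34), Krt36 (0.17) and Krt34 (0.0064), with the same series for Krt31 (-0.020) and under median centring for Krt31 (-0.12). With 1 array left out, signs turned for Krt24 (-0.27 to 0.032), Krt78 (-0.17 to 0.14), Krt26 (-0.030 to 0.26), Krt36 (-0.68 to 0.21), Krt31 (-0.25 to 0.24), Krt86 (-0.29 to 0.63), Krt84 (-0.0070 to 0.73) and Krt33b (-0.092 to 0.34). No paired analysis was possible because replicate numbers were given in accession order and pair no samples. No depth can be read from arrays, and levels near the receptor genes limit what the NCP arrays can resolve.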
